A study of Mus musculus with 10 samples.

Results

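RNA of 45 genes of mature skeletal muscle was described in 10 bulk melanoma tumors collected 4 days after tumor cell injection. The 45 are fast, slow, sarcomere and calcium-handling genes out of 45706 genes in the count table, and they were chosen by their high level in tumors of NK cell-depleted mice, so that level is given here as a description and is not tested. Tumors grew from a Braf V600E-driven mouse melanoma cell line injected subcutaneously in the flank of C57BL/6 mice that were 8 weeks old. The cells were wildtype (Ptgs+/+, 4 tumors) or Ptgs1/Ptgs2 deficient (Ptgs-/-, 3 tumors, made by CRISPR/Cas9). The remaining group held 3 Ptgs-/- tumors from mice given antibodies to NK1.1 (200 µg) and asialo GM1 (30 µg) on days 0 and 2, as the labels state. The study's methods describe another antibody schedule. No wildtype tumor of an NK cell-depleted mouse was analysed here, so depletion can only be set against Ptgs-/- tumors of untreated mice. The study used the comparison of Ptgs-/- with Ptgs+/+ tumors to ask how loss of COX activity in the cancer cells alters early tumor inflammation.

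Skeletal muscle fibers contract when myosin of the thick filament pulls on actin of the thin filament, between Z-discs that anchor the thin filaments. Calcium released from the sarcoplasmic reticulum through the ryanodine receptor binds troponin, which moves tropomyosin and opens the actin sites, and the calcium pump then returns the ion to its store. Fast and slow fibers use different genes for many of these parts, and several slow fiber genes are shared with heart muscle. Most of these proteins are made by differentiated fibers, and hardly or not at all by the dividing myoblasts from which fibers form.

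The libraries were QuantSeq libraries, which count 3′ ends of transcripts, so that a gene's count does not scale with its length and counts of different genes can be set side by side. Levels are given as CPM, the count of a gene scaled by the total count of its library. Libraries held 8150556 to 12839174 counts, and 3 counts in a library, used as a floor, corresponded to 0.234 to 0.368 CPM. In bulk tumors, fewer cells of a type and less RNA per cell cannot be told apart. Ptgs2, a targeted gene, was at 94.4 to 347 CPM in Ptgs+/+ tumors, 27.0 to 74.8 CPM in Ptgs-/- tumors and 40.2 to 49.3 CPM in NK cell-depleted hosts, and Ncr1, an NK cell receptor, had no count in the 3 depleted hosts. Of the melanocytic markers, Tyr, Mlana and Tyrp1 were at or under the floor in all 10 tumors, while Mitf, which drives melanocyte identity, was at 17.4 to 33.1 CPM. Titles carry 2 codes, EB046 and EB042, and the labels do not say what they stand for. The EB042 libraries are Ptgs+/+ replicate 4 and Ptgs-/- replicate 3, and all 3 tumors of NK cell-depleted mice carry EB046.

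The 45 genes summed to 213, 256, 430 and 200.1 CPM in Ptgs+/+ tumors and to 773, 555 and 319 CPM in Ptgs-/- tumors. In the tumors of NK cell-depleted mice they summed to 3696, 4980 and 8983 CPM. This was 0.0200% to 0.0430% of all counts in Ptgs+/+ tumors, 0.0319% to 0.0773% in Ptgs-/- tumors and 0.370% to 0.898% in depleted hosts. Single tumors ordered most genes alike: Ptgs+/+ replicate 3 was the highest of its group for 31 of the 45 genes, Ptgs-/- replicate 1 for 33, and depleted replicate 3 for 42. At the other end, Ptgs+/+ replicate 4 was the lowest for 22 genes, Ptgs-/- replicate 3 for 36 and depleted replicate 1 for 38.

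**Figure D1:**
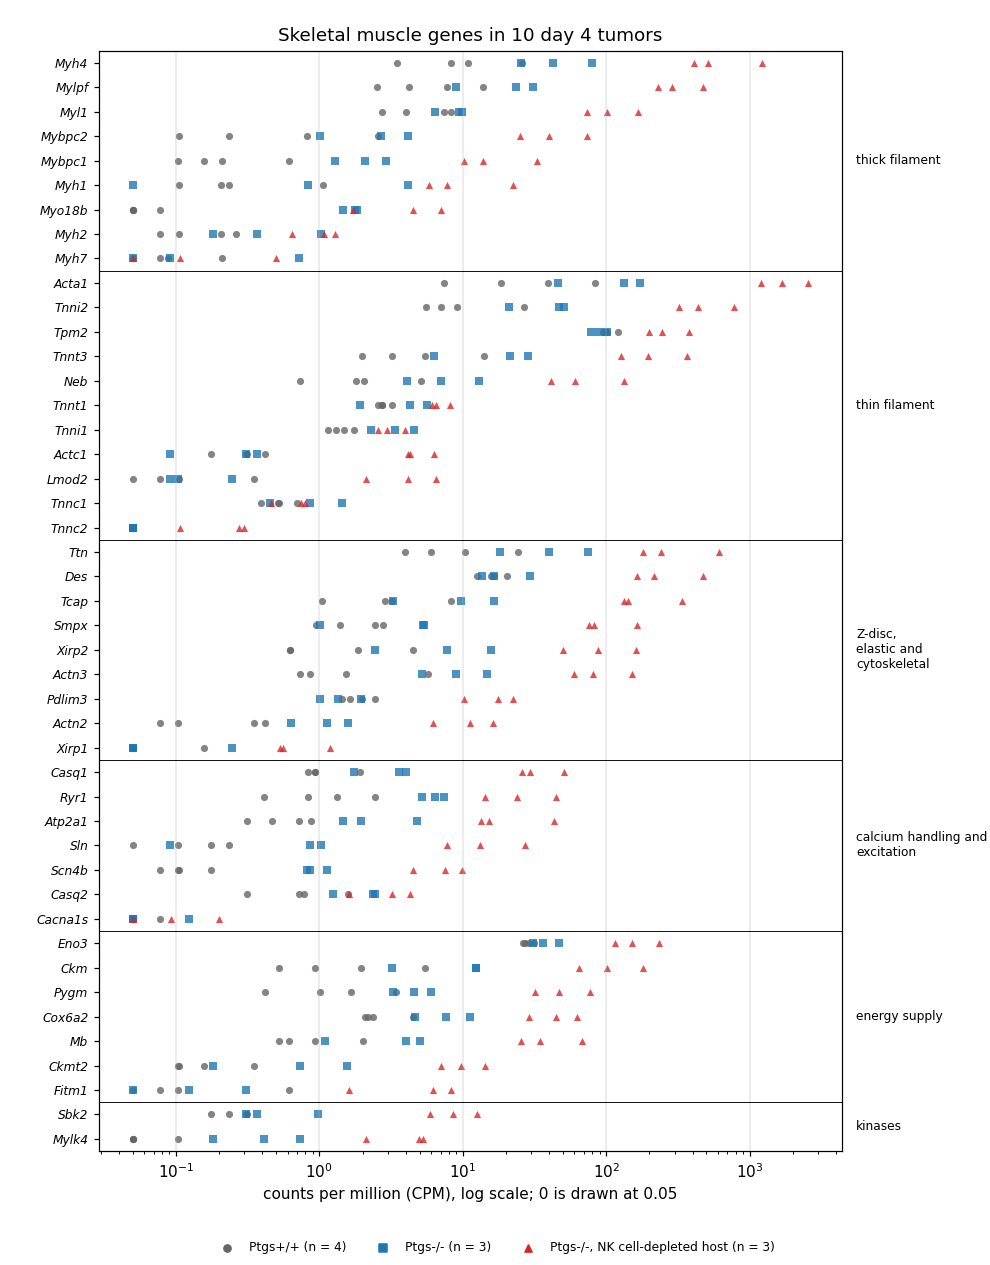
Level of each of the 45 genes (rows, by role) in each tumor, in CPM on a log axis, with 0 drawn at 0.05. Triangles (tumors of NK cell-depleted mice) lie to the right of the squares (Ptgs-/-) without overlap for 38 of 45 genes, and circles are Ptgs+/+ tumors.

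Across the 45 genes, the lowest depleted tumor was above the highest Ptgs-/- tumor for 38 and above the highest Ptgs+/+ tumor for 42. Among the 40 genes that passed the filter on low counts, the numbers were 36 of 40 (90.0%) and 40 of 40, beside 7.16% and 15.1% of all 14550 genes tested. Since the genes were chosen by these tumors, nothing is read from that gap. The ratio of mean CPM in depleted over Ptgs-/- tumors ran from 0.726 to 27.6, with a median of 10.1, over the 39 genes for which both groups rose above the floor. For 4 genes only a lower bound can be given, and Tnnc2 and Cacna1s were at or under the floor in both groups. The median log2 fold change from the fit was 3.55 over the 40 genes (3.53 with genes at the floor set to their bound) and 0.013 over all genes. Comparisons of both other groups with Ptgs-/- tumors share those 3 libraries, so their values are given side by side and are not correlated.

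For 4 genes given as examples, all with a marked match, the 250 bases before the RefSeq transcript start (GRCm38.p6) are printed 5′ to 3′ on the gene's strand. Acta1 and Myh4 are the most abundant actin and myosin of the group, Mylk4 is a kinase gene whose window holds a MEF2 match, and Tnnc1 is a slow fiber gene that was low in all tumors. Capitals mark matches, on either strand, to the MCAT box (CATTCC), the TATA box (TATAAA) and the MEF2 and CArG consensus motifs.
Acta1 chr8:123894776-123895025 (- strand): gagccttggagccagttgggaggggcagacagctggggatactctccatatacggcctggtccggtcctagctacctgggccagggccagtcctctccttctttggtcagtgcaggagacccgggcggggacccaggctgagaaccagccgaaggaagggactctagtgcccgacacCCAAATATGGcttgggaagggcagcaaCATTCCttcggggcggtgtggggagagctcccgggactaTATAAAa
Myh4 chr11:67237562-67237811 (+ strand): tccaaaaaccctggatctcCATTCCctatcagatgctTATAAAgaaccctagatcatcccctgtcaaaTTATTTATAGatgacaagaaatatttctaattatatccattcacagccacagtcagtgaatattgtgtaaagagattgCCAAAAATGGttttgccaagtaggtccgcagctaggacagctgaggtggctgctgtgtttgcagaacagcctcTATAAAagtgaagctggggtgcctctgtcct
Mylk4 chr13:32783965-32784214 (- strand): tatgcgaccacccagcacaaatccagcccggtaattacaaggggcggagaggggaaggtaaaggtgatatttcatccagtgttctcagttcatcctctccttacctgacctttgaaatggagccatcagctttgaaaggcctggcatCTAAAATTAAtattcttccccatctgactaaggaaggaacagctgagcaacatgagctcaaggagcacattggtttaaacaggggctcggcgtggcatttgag
Tnnc1 chr14:31208062-31208311 (+ strand): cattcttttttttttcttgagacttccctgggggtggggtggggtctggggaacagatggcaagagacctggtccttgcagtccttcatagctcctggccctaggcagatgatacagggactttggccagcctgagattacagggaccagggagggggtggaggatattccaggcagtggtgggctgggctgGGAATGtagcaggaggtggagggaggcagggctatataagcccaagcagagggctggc
The Acta1 window held a CArG match starting 73 bases before the start, an MCAT match at 46 bases and a TATA match at 7 bases. In the Myh4 window were an MCAT match at 231 bases, TATA matches at 213, 179 and 31 bases, a MEF2 match at 182 bases that overlaps the TATA match at 179, and a CArG match at 104 bases. Mylk4 had a MEF2 match at 103 bases and Tnnc1 an MCAT match at 58 bases. RefSeq promoters were found for 36 of the 45 genes (40 promoters). MEF2 matched 15.0% of these 40 and 2.92% of all 32851 promoters, CArG 7.5% and 1.47%, MCAT 25.0% and 12.6%, TATA 12.5% and 12.4%, and the E-box (CANNTG, the binding motif of MyoD and its relatives, not capitalized) 82.5% and 66.2%. These are letter matches, and no binding was measured.

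Genes of the thick filament were led by Myh4 (ENSMUSG00000057003, chr11:67238029-67260446, + strand), the myosin heavy chain of the fastest fibers. Myh4 stood at 8.26, 10.8, 25.9 and 3.45 CPM in Ptgs+/+ tumors, at 79.6, 42.8 and 25.5 CPM in Ptgs-/- tumors, and at 408, 514 and 1215 CPM in depleted hosts. Only Ptgs+/+ replicate 3 reached into the range of the Ptgs-/- tumors. Mylpf, the fast regulatory light chain, was at 4.21, 7.73, 13.9 and 2.51 CPM, then 31.0, 23.7 and 8.94 CPM, then 231, 287 and 475 CPM, in the same order of groups. Myl1, the fast essential light chain, was at 2.73, 4.02, 8.34 and 7.43 CPM, at 9.82, 9.42 and 6.38 CPM, and at 73.1, 101 and 168 CPM. For both light chains the untreated groups overlapped and the depleted tumors lay apart. Myosin-binding protein C comes in a slow form, Mybpc1, and a fast form, Mybpc2. Mybpc1 was at 0.156, 0.103, 0.615 and 0.209 CPM in Ptgs+/+ tumors, 2.09, 2.90 and 1.28 CPM in Ptgs-/- tumors and 10.2, 13.8 and 33.1 CPM in depleted hosts, with no overlap between any pair of groups. Mybpc2 averaged 0.927, 2.62 and 46.2 CPM, and its untreated groups overlapped. Myo18b, an unconventional myosin needed for sarcomere assembly, had 1 count in Ptgs+/+ replicate 1 (0.0779 CPM) and none in the other Ptgs+/+ tumors. It was at 1.84, 1.76 and 1.46 CPM in Ptgs-/- tumors and at 1.71, 4.52 and 7.05 CPM in depleted hosts. Myo18b thus set the Ptgs+/+ tumors apart from both other groups, which overlapped each other. The remaining heavy chains were scarce: Myh1 averaged 0.400 and 1.67 CPM in the untreated groups and ran from 5.78 to 22.6 CPM in depleted hosts, Myh2 did not exceed 1.29 CPM, and slow Myh7 did not exceed 0.724 CPM in any tumor.

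Of the counts of Myh1, Myh2, Myh4 and Myh7 combined, Myh4 made up 89.2% to 96.3% in Ptgs+/+ tumors, 94.3% to 98.9% in Ptgs-/- tumors and 98.0% to 98.4% in depleted hosts. The lowest of these rested on 37 myosin counts (exact binomial 95% interval 74.6% to 97.0%) and the share in depleted replicate 3 on 12473 (97.8% to 98.3%). Intervals here cover counting error only. In the last 500 exonic bases of each annotated transcript end, 12.6% of 50-base windows of Myh4, 16.1% of Myh1 and 15.9% of Myh2 also occur in another myosin gene, so some reads could have been split among them.

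Among thin filament genes Acta1 (ENSMUSG00000031972, chr8:123891769-123894751, - strand), the actin of adult skeletal muscle, was the most abundant of all 45. The Acta1 level was 18.5, 39.6, 84.2 and 7.43 CPM in Ptgs+/+ tumors, 171, 132 and 46.3 CPM in Ptgs-/- tumors and 1197, 1682 and 2543 CPM in depleted hosts. Acta1 made up 3.71% to 19.6% of the counts of the 45 genes in Ptgs+/+ tumors, 14.5% to 23.8% in Ptgs-/- tumors and 28.3% to 33.8% in depleted hosts. Tnni2, the fast troponin I that blocks contraction without calcium, was at 7.01, 9.07, 26.7 and 5.55 CPM, at 50.6, 46.6 and 20.9 CPM, and at 324, 434 and 774 CPM. As with Myh4, Ptgs+/+ replicate 3 was above the lowest Ptgs-/- tumor. Tpm2, beta-tropomyosin, which non-muscle and smooth muscle cells also make, behaved differently: it was at 95.02, 99.5, 120.3 and 102 CPM in Ptgs+/+ tumors, 102, 78.1 and 88.5 CPM in Ptgs-/- tumors and 199, 247 and 376 CPM in depleted hosts. Tpm2 fell as a share of the 45 genes' counts from 27.99% to 51.0% in Ptgs+/+ tumors to 4.19% to 5.38% in depleted hosts. Tnnt3, fast troponin T, averaged 6.20, 18.8 and 230 CPM in the 3 groups, and Neb, the giant protein along the thin filament, 2.42, 8.05 and 78.1 CPM. Actc1, the heart and fetal actin, and Lmod2, an actin filament nucleator, averaged at most 0.304 CPM in the untreated groups and 4.91 and 4.25 CPM in depleted hosts, at least 13.3-fold and 11.6-fold higher than in Ptgs-/- tumors, which were at or under the floor.

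Slow troponin genes did not share the size of that difference. Tnni1, slow troponin I, averaged 1.43 ± 0.256 CPM (SD, n = 4) in Ptgs+/+ tumors, 3.40 ± 1.13 CPM (SD, n = 3) in Ptgs-/- tumors and 3.17 ± 0.708 CPM (SD, n = 3) in depleted hosts, the last 2 overlapping. Tnnt1, slow troponin T, averaged 2.80, 3.93 and 6.92 CPM, and Tnnc1 (ENSMUSG00000091898, chr14:31208312-31211729, + strand), slow and heart troponin C, 0.533, 0.921 and 0.668 CPM. Over the 11 fast genes tested the median log2 fold change of depleted over Ptgs-/- tumors was 3.64, and over the 6 slow or heart-shared genes tested it was 2.03. Slow genes were not uniform, since Sln had a value of 4.65 where Tnni1 had -0.07 and Casq2 0.62.

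The count of a fast gene was next taken as a share of its fast and slow pair. The genes were chosen by their level in depleted hosts, so a higher share there is a description and nothing is read from it. Depleted hosts stood apart for troponin I, troponin T and calsequestrin. Tnni2 made up 82.6% to 95.3% of troponin I counts in Ptgs+/+ tumors, 86.1% to 95.3% in Ptgs-/- tumors and 98.8% to 99.6% in depleted hosts. For troponin T, Tnnt3 made up 42.2% to 83.9%, 76.7% to 87.0% and 95.4% to 98.3% in the 3 groups. Casq1, the fast calsequestrin, made up 54.5% to 72.7%, 42.2% to 74.5% and 90.1% to 94.1% of the calsequestrin counts. For these 3 pairs every depleted tumor lay above every other tumor. Tnnc2, the fast troponin C, also stood apart in the Tnnc2 and Tnnc1 counts. Its share was 0% in untreated mice and, on 8 to 11 counts, 12.5% to 37.5% in depleted hosts. The share of Actn3 in the Actn3 and Actn2 counts showed no such step, at 63.6% to 94.2%, 88.8% to 90.2% and 87.7% to 90.6%. Mybpc2 made up 33.3% to 88.9% of the Mybpc2 and Mybpc1 counts in Ptgs+/+ tumors, 44.0% to 66.7% in Ptgs-/- tumors and 68.8% to 74.4% in depleted hosts, which lay inside the range of Ptgs+/+ tumors. Shares in Ptgs+/+ tumors were imprecise, since the Casq1 share of 72.7% rested on 11 counts (exact 95% interval 39.0% to 94.0%).

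**Figure D2:**
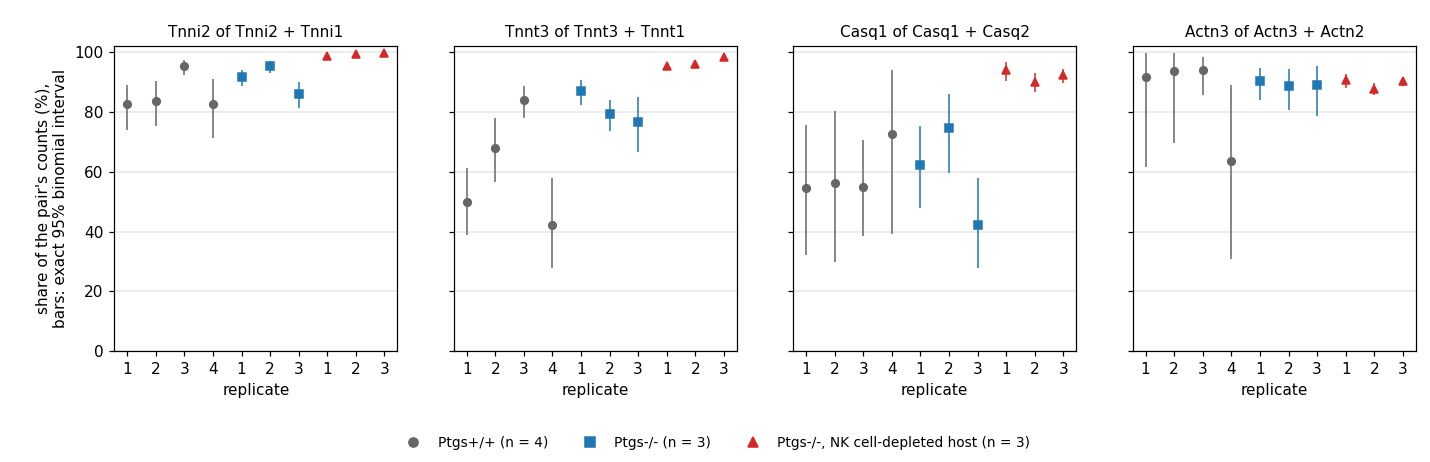
Share (%) of a pair's counts held by the first gene in each tumor, with exact 95% binomial intervals, for troponin I, troponin T, calsequestrin and alpha-actinin. In the first 3 panels the triangles (depleted hosts) stand above all other tumors, between 90.1% and 99.6%, and in the alpha-actinin panel they do not. The genes were chosen by their level in depleted hosts, so nothing is read from that step.

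Tnnc2 was at or under the floor in every tumor, so its level cannot be set against those of its fast partners. It had no count in any of the 7 tumors of untreated mice and 1, 3 and 3 counts in depleted hosts. Cacna1s, the voltage sensor of the muscle membrane, did not exceed 0.199 CPM in any tumor. Exons on the opposite strand cover 94.2% of the last 500 exonic bases of Tnnc2 (Ube2c) and 100% of those of Cacna1s (Gm37759). Such overlap covers 49.5% of the ends of Atp2a1, 47.1% of Myh2, 44.0% of Des, 41.5% of Mb, 26.9% of Ckm, 23.98% of Myh1, 19.9% of Mybpc2, 19.5% of Myh7 and 14.0% of Cox6a2 as well. Whether counting used strand is not given in the sources used here, so for these 11 genes reads of both strands may not have been separated or may have been left uncounted.

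Z-disc and elastic genes included Ttn, the giant spring between Z-disc and M-line. Ttn was at 6.00, 10.3, 24.4 and 3.98 CPM in Ptgs+/+ tumors, 74.8, 40.2 and 18.1 CPM in Ptgs-/- tumors and 180, 241 and 608 CPM in depleted hosts. Des, the muscle intermediate filament, was at 16.4, 12.6, 20.5 and 15.7 CPM, at 29.3, 16.5 and 13.7 CPM, and at 163, 215 and 474 CPM. For both genes the untreated groups overlapped, and Ptgs-/- replicate 1 was the highest of their tumors. Tcap, which caps titin at the Z-disc, was at 2.88, 3.20, 8.34 and 1.05 CPM, at 16.6, 9.73 and 3.28 CPM, and at 134, 142 and 338 CPM. The alpha-actinins crosslink actin at the Z-disc. Actn3, the fast form, was at 0.857, 1.55, 5.71 and 0.732 CPM, at 14.7, 9.00 and 5.20 CPM, and at 59.6, 80.5 and 151 CPM. Actn2 was at 0.0779, 0.103, 0.351 and 0.419 CPM, at 1.60, 1.14 and 0.638 CPM, and at 6.21, 11.3 and 16.2 CPM, without overlap between groups. Smpx, a small protein of striated muscle, had the highest ratio of depleted to Ptgs-/- tumors, 27.6, with averages of 107 and 3.89 CPM. Xirp2, an actin-binding protein of the Xin family, averaged 1.90, 8.68 and 99.4 CPM, and Pdlim3, a Z-disc adaptor, 1.88, 1.44 and 16.7 CPM. Xirp1, of the same family as Xirp2, was at or under the floor in both untreated groups and averaged 0.760 CPM in depleted hosts.

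Calcium genes were lower in level. Ryr1, the calcium release channel, was at 1.32, 0.412, 2.46 and 0.837 CPM in Ptgs+/+ tumors, 7.36, 5.17 and 6.38 CPM in Ptgs-/- tumors and 14.3, 23.9 and 44.6 CPM in depleted hosts. Atp2a1, the fast calcium pump, was at 0.467, 0.722, 0.878 and 0.314 CPM, at 4.79, 1.97 and 1.46 CPM, and at 13.5, 15.1 and 43.5 CPM. For both genes each group lay above the one before it without overlap. Casq1 was at 0.935, 0.928, 1.93 and 0.837 CPM, at 4.05, 3.62 and 1.73 CPM, and at 25.7, 29.4 and 50.6 CPM. Scn4b, a sodium channel beta subunit, was at 0.0779, 0.103, 0.176 and 0.105 CPM, all under the floor, then at 0.859, 1.14 and 0.821 CPM, then at 4.49, 7.57 and 9.93 CPM. Sln, sarcolipin, which inhibits the calcium pump, averaged 0.662 CPM in Ptgs-/- tumors and 16.0 CPM in depleted hosts.

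Energy genes included Eno3, the muscle enolase, whose level in Ptgs+/+ tumors was the highest of this role, at 26.3, 27.2, 29.0 and 31.5 CPM. Eno3 was at 46.9, 36.4 and 31.0 CPM in Ptgs-/- tumors and 114, 151 and 234 CPM in depleted hosts. Ckm, muscle creatine kinase, was at 0.935, 1.96, 5.44 and 0.523 CPM, at 12.4, 12.4 and 3.19 CPM, and at 64.3, 101 and 181 CPM. Pygm, the muscle glycogen phosphorylase, was at 1.01, 1.65, 3.42 and 0.419 CPM, at 6.01, 4.55 and 3.28 CPM, and at 31.8, 46.6 and 76.6 CPM. For all 3 genes the untreated groups overlapped and the depleted tumors lay above them. Mb, myoglobin, averaged 1.02, 3.40 and 42.9 CPM and Cox6a2, a muscle subunit of cytochrome oxidase, 2.78, 7.87 and 45.5 CPM. Ckmt2, the mitochondrial creatine kinase, averaged 0.179, 0.824 and 10.4 CPM, and Fitm1, a lipid droplet protein, at most 0.199 CPM in the untreated groups and 5.34 CPM in depleted hosts. Of the kinases, Sbk2 was at 0.234, 0.309, 0.176 and 0.314 CPM, at 0.982, 0.310 and 0.365 CPM, and at 8.56, 5.90 and 12.5 CPM. Mylk4, a myosin light chain kinase family member, had 1 count in 1 Ptgs+/+ tumor (0.103 CPM) and none in the other 3, with 0.736, 0.414 and 0.182 CPM in Ptgs-/- tumors and 4.92, 2.12 and 5.26 CPM in depleted hosts.

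The contrast between tumors of untreated mice was not part of the rule that chose the genes. The genes were nonetheless chosen with earlier results of these data known. edgeR's quasi-likelihood test called 11 of the 40 genes tested higher in Ptgs-/- tumors (27.5%) and none lower, requiring a log2 fold change of 1.5 or more and a false discovery rate (FDR, Benjamini-Hochberg over 14550 genes) no higher than 0.05. Of all genes tested, 3.14% were called higher. By the FDR alone 14 genes were higher (35.0%, beside 12.1% of all genes) and 0 lower (11% of all genes). With no adjustment, 25 of the 40 were higher at p under 0.05 and 0 were lower. No share of all genes is given for that threshold, so nothing is read from these counts. DESeq2 called 13 higher (32.5%, beside 3.3% of all genes) and none lower. The fitted value was above 0 for 35 genes and below 0 for 5, with a median log2 fold change of 1.54 (1.41 with genes at the floor set to their bound), where the median of all genes was -0.006. Groups did not overlap for 9 of the 40 (22.5%), beside 18.1% of all genes. The other 5 genes (Myh7, Tnnc1, Tnnc2, Cacna1s and Xirp1) had too few counts to be tested, and 11 of the 40 passed the filter only through tumors of depleted mice. Of the genes called, Actn2, Scn4b and Mylk4 were among these 11. In a fit of the 7 tumors of untreated mice alone, 29 genes passed the filter and 5 were called (17.2%, beside 2.92% of all genes tested in that fit), namely Myh4, Atp2a1, Ryr1, Mybpc1 and Myo18b.

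The called genes came from 5 of the 6 roles. In the thick filament they were Myh4 (log2 fold change 1.95 ± 0.59, SE, FDR = 0.0325), Mybpc1 (2.80 ± 0.67, FDR = 0.0116) and Myo18b (5.54 ± 0.84, FDR = 0.000982). Tnni2 was the thin filament gene called (1.63 ± 0.51, FDR = 0.0390). At the Z-disc and along the elastic filament Actn2 (2.13 ± 0.62, FDR = 0.0292), Actn3 (2.02 ± 0.62, FDR = 0.0348) and Ttn (1.92 ± 0.63, FDR = 0.0470) were called. Calcium and excitation genes were Ryr1 (2.22 ± 0.49, FDR = 0.00744), Atp2a1 (2.08 ± 0.64, FDR = 0.0360) and Scn4b (2.85 ± 0.51, FDR = 0.00264). The kinase was Mylk4 (3.58 ± 1.03, FDR = 0.0281), which like Actn2 and Scn4b was not tested in the fit of untreated hosts alone. For the 3 genes at or under the floor in all Ptgs+/+ tumors the fitted value depends on the prior count. As ratios of mean CPM to that floor, Myo18b was at least 5.37-fold higher in Ptgs-/- tumors, Scn4b at least 2.99-fold and Mylk4 at least 1.42-fold. Tnni1 (1.18 ± 0.30, FDR = 0.0152), Casq1 (1.34 ± 0.41, FDR = 0.0374) and Cox6a2 (1.42 ± 0.38, FDR = 0.0202) passed the FDR but not the fold. No energy gene was called, although Ckm had a value of 1.98 ± 0.67 (FDR = 0.0532). Acta1 was at 1.57 ± 0.64 (FDR = 0.101), Des at 0.21 ± 0.37 (FDR = 0.715) and Tpm2 at -0.28 ± 0.19 (FDR = 0.306), none of which passed. With the title code as a term in the model 20 of the 40 genes were called (50%, beside 3.13% of all genes). These included 4 energy genes, Ckm (2.16, FDR = 0.0161), Ckmt2 (2.18, FDR = 0.0261), Mb (1.73, FDR = 0.0293) and Pygm (1.58, FDR = 0.0364). Acta1 was called as well (1.86, FDR = 0.0140), but neither Des nor Tpm2 was. Ckmt2, like Actn2, Scn4b and Mylk4, passed the filter only through tumors of depleted mice.

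**Figure D3:**
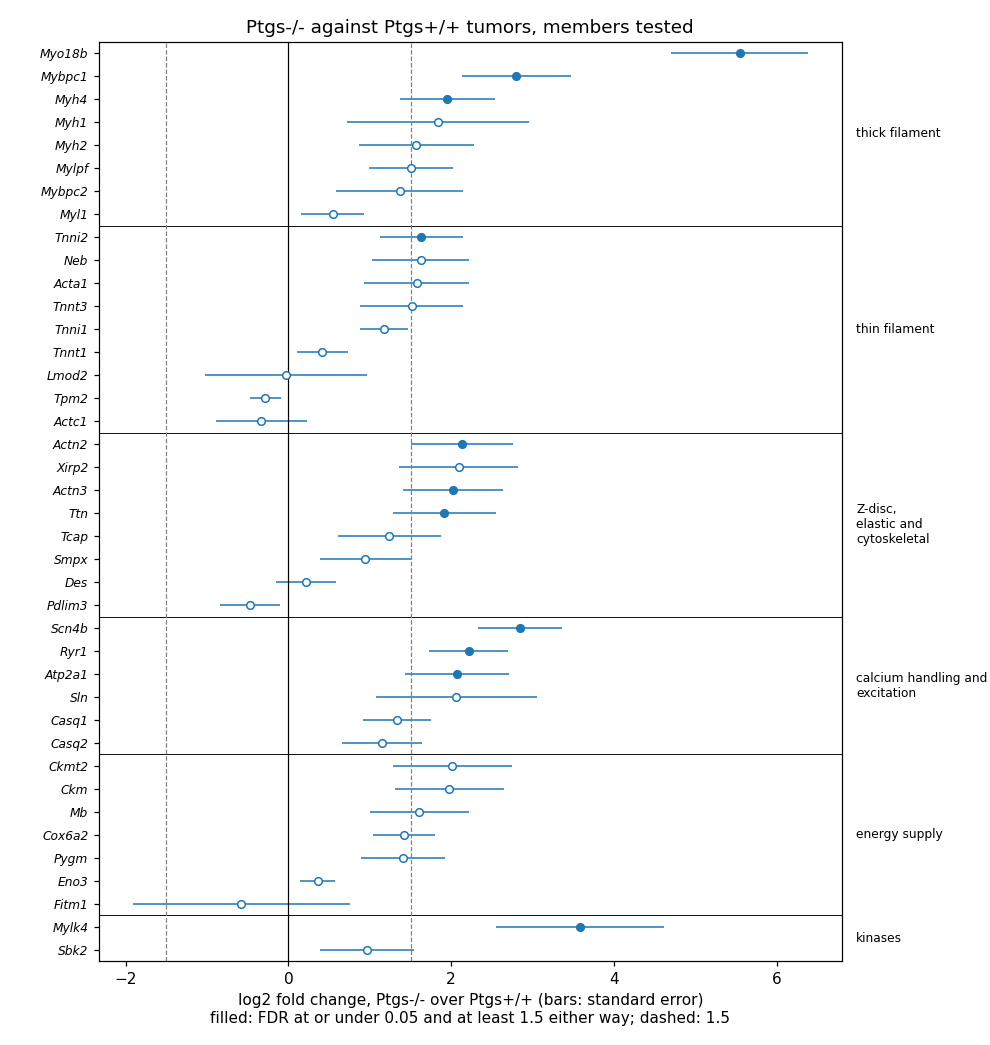
Log2 fold change of Ptgs-/- (n = 3) over Ptgs+/+ (n = 4) tumors with its standard error for the 40 genes tested, by role. Filled points are the 11 genes called, dashed lines mark a log2 fold change of 1.5 either way, and 35 of 40 points lie to the right of 0.

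Single libraries decided many of these calls. With each of the 10 libraries left out in turn, 3 to 24 genes were called, beside 2.39% to 3.82% of all genes. The fewest were called without Ptgs-/- replicate 2 (3, 7.5%, beside 2.39% of all genes). The most were called without Ptgs+/+ replicate 3 (24, 60%, beside 3.51%), the tumor with the highest muscle level of its group. Without Ptgs-/- replicate 1 there were 4 (10%, beside 3.82%) and without Ptgs-/- replicate 3 there were 20 (50%, beside 3.26%). Without Ptgs+/+ replicates 1, 2 and 4 there were 4, 5 and 5 (10%, 12.5% and 12.5%, beside 3.08%, 2.61% and 3.12%). Ryr1, Myo18b and Scn4b were called in all 10 of these fits, all of which kept at least 2 depleted tumors through which Scn4b passed the filter, and Mybpc1 in 9, while Ttn was called in 3. Without Ptgs-/- replicate 2 only Ryr1, Scn4b and Myo18b were called. Within code EB046 (3 against 2 tumors) 37 of the 40 genes were higher in Ptgs-/- tumors, with a median difference of 1.102 in log2(CPM + 1). Within EB042 (1 against 1) 30 were, with a median of 0.79. The 40 include the 11 genes that passed the filter only through depleted tumors. No share of all genes is given for these splits, so nothing is read from the 2 counts.

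A wider list of 68 other muscle genes, chosen with earlier results of these data known, gave 6 genes called higher and 0 lower of 59 tested (10.2%, beside 3.14% of all genes called higher), with a median of 0.95. Among them were Mypn of the Z-disc, Trdn, which holds calsequestrin at the release channel, Pvalb, the calcium buffer of fast fibers, Chrna1, the acetylcholine receptor subunit, and Apobec2, a muscle-enriched member of a deaminase family. Chrna1 had the smallest error, with a log2 fold change of 3.17 ± 0.27 (FDR = 3.9e-05). Its level was 6.38 to 16.0 CPM in Ptgs+/+ tumors, 78.5 to 120.2 CPM in Ptgs-/- tumors and 103 to 167 CPM in depleted hosts, the last 2 overlapping, as for Tnni1 and Myo18b. By the FDR alone 7 were higher and 3 lower, beside 12.1% and 11% of all genes. The added gene was Ldb3 (1.19 ± 0.37), and Tpm1 (-0.74 ± 0.11), Nexn (-0.54 ± 0.12) and Hspb6 (-1.004 ± 0.20), which smooth muscle and other cells also express, were lower. For depleted over Ptgs-/- tumors the median over the wider list was 2.90.

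Genes whose pattern was most like the mean log2(CPM + 1) of the 40 genes over the 10 libraries were Csrp3, Klhl31, Cmya5, Pgam2, Trdn, Ampd1, Hrc, Tmem233, Dhrs7c, Apobec2, Klhl41, Myoz1, Myom2, Sypl2 and Mylk2. Pearson's r ran from 0.995 to 0.988, and the libraries fall into 3 groups with different levels, so r mainly reflects that step. Of these 15, 12 were in the wider list and Tmem233, Dhrs7c and Sypl2 were not. Csrp3, a muscle LIM protein, averaged 0.166, 0.653 and 4.61 CPM in the 3 groups.

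Other cell types were read from marker lists. Muscle stem cell and myoblast markers (9 genes) summed to 0.234 to 0.928 CPM in Ptgs+/+ tumors, 0.621 to 1.60 CPM in Ptgs-/- tumors and 5.14 to 9.44 CPM in depleted hosts, with Myf5, Mymk and Chrng at the floor in all tumors. Myog, which drives myoblasts to become fibers, was at 2.78, 2.86 and 3.48 CPM in depleted hosts and at most 0.368 CPM elsewhere. Heart markers (9 genes) summed to 8.58 to 10.2, 14.3 to 19.6 and 11.9 to 18.0 CPM. Myh6, the heart myosin, had no count in any tumor, and Nppa, Myl7 and Ryr2 were at the floor. In untreated mice Tnni3, Tnnt2 and Mybpc3 (3 of 9, beside 18.1% of all genes) were higher in every Ptgs-/- than in every Ptgs+/+ tumor. Tnnt2 was at 1.26 to 1.79, 4.24 to 7.98 and 4.60 to 7.75 CPM in the 3 groups. Smooth muscle markers (7 genes) summed to 135 to 197, 55.5 to 139 and 113 to 174 CPM. Adipocyte markers (8 genes) summed to 1578 to 7447, 474 to 5345 and 3245 to 6276 CPM, and nerve sheath markers (6 genes, Pmp2 at 0) to 53.1 to 247, 112 to 490 and 148 to 318 CPM. Keratinocyte markers (6 genes, Krt1 and Lor at the floor) summed to 17.0 to 22.5, 18.1 to 20.9 and 22.4 to 23.5 CPM. In Ptgs+/+ tumors, replicate 3 had the highest adipocyte and nerve sheath sums as well as the highest muscle sum, and in Ptgs-/- tumors replicate 1 had the highest muscle and nerve sheath sums and the lowest adipocyte sum. Fibroblast markers (4 genes) were at 5716 to 7701, 10450 to 12990 and 8042 to 10500 CPM, and endothelial markers (4 genes) at 223 to 251, 97.1 to 207 and 147 to 226 CPM. The part of these differences in the muscle genes' levels was not tested.

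**Figure D4:**
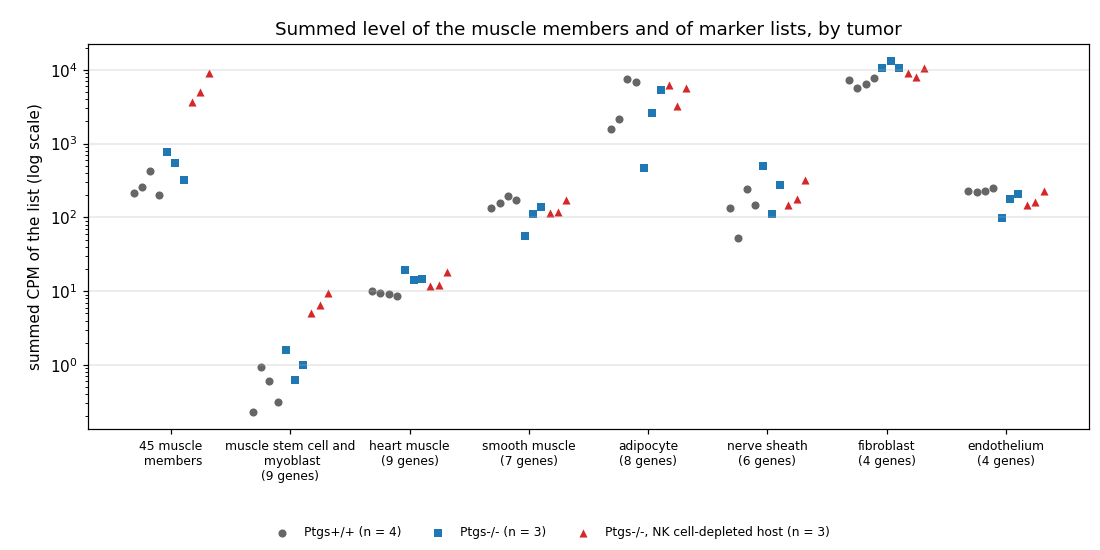
Summed CPM of the 45 muscle genes and of marker lists for other cell types in each tumor, on a log axis. Muscle genes sum to 3696 to 8983 CPM in depleted hosts and at most 773 CPM elsewhere, and the fat, nerve sheath, smooth muscle and heart sums of the groups overlap except for heart, where both Ptgs-/- groups lie above Ptgs+/+ tumors.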

How the data were processed

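RNA of bulk tumors (500 ng) was made into QuantSeq 3′ libraries. The authors trimmed the reads (BBDUK, fqtrim, cutadapt), mapped what remained with STAR (GRCm38) and assigned it to Ensembl genes by featureCounts. Raw counts were deposited by the authors, 1 column per tumor, and the use of strand, multimapping reads and molecular identifiers is not given in the sources used here. Groups and replicate numbers came from the labels. In R 4.3.3, edgeR 4.0.16 filtered 45706 genes to 14550 (filterByExpr), scaled by TMM and fitted all 10 libraries in 1 model. Only Ptgs-/- against Ptgs+/+ was tested. The members and lists were chosen with earlier results of these data known. Values in every tumor are given for the 3 most abundant members of each role and for every member called, and the genes otherwise named are the 15 of most similar pattern and wider-list genes that passed, of which 1 is not reported here. Standard errors are the log2 fold change over the square root of F. Replicates differed by 8.06 to 33.2 chi-square per degree of freedom, so none was a duplicate. Labels do not say more of how tumors were replicated, so p-values measure the spread between these tumors. Alternatives were RLE factors, library size, other filters, DESeq2 1.42.0, a likelihood ratio test, the code as a term, fewer libraries and the title number as a block.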

Additional observations from a re-analysis of the deposited data

Results flagged for a closer look

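Among the 22 sets of 4 Ptgs+/+ tumors examined, 1 for each member described tumor by tumor, 5 had a tumor far from the other 3, where chance gives about 1 in 20. Ptgs+/+ replicate 3 stood above its group for Actn3 (5.71 CPM, 65 counts), Tnni2 (26.7 CPM, 304 counts) and Casq1 (1.93 CPM, 22 counts). Ptgs+/+ replicate 1 was the only tumor of its group with Myo18b RNA (0.0779 CPM) and replicate 2 the only one with Mylk4 RNA (0.103 CPM), each from 1 count. For Myo18b and Mylk4, 1 count beside zeros gives the widest possible gap, so the chance rate does not apply to them, and the 3 genes high in replicate 3 were not independent, since that tumor was the highest of its group for most of the muscle genes.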

How the results depend on the processing

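The count of genes called higher in Ptgs-/- tumors, 11 of 40, was 11 to 14 under several settings. These were RLE factors, library size alone, TMM without muscle genes, DESeq2, the first code alone, the title number as a replicate block (11) and the FDR alone. The shares were 27.5% to 35%, beside 3.08% to 3.47% of all genes, or 12.1% with the FDR alone. With no filter the count was 19 of 45 (42.2%, beside 2.23% of all genes). It was 18 with the likelihood ratio test (45% and 3.31%) and 20 with the code as a term (50% and 3.13%). It was 5 of 29 with only the groups compared (17.2% and 2.92%) and 3 of 15 (20% and 1.83%) where all libraries needed 10 counts or more. The last 2 tested fewer genes. The cause of the differences between settings was not tested. With 1 library left out the count ranged from 3 to 24 (beside 2.39% to 3.82% of all genes), and the median log2 fold change from 1.11 to 2.18. The median was 1.64 with the replicate block. Title numbers did not pair the samples: deviations correlated from -0.296 to 0.387 in 11 same-numbered pairs and from -0.465 to 0.19 in 22 others. Depleted tumors lay above Ptgs-/- tumors for 14 of the 15 genes with at least 10 counts in every library. No share of all genes is given for that filter. Since the genes were chosen by these tumors, nothing is read from that number. No value gave a test of the contrast of depleted with Ptgs-/- tumors, whose median was 3.12 to 3.84 with 1 library left out.

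Of the values of single genes over the settings, 691 kept their direction and side of the threshold, 44 lost and 57 gained the call, and 12 changed sign, none of them called. With 1 library left out the log2 fold change ranged from -0.66 to 0.15 for Actc1, -0.18 to 0.47 for Des, -0.13 to 2.92 for Myh1, -0.52 to 0.98 for Lmod2 and -1.80 to 0.98 for Fitm1. With the first code alone Actc1 was 0.31 and Lmod2 0.17, and Lmod2 was 0.022 with library size alone and 0.0557 with the code as a term. The cause was not tested. Few counts in Ptgs+/+ tumors limit the precision of low genes.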
